A study of Mus musculus with 10 samples.

Results

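The line-specific part of the response to a high dose of 4-hydroxytamoxifen (OHT) was taken as an interaction of line and drug in mouse embryonic fibroblasts (MEFs), connective tissue cells cultured from embryos. It is the change with 5 µM OHT in Dicer conditional-knockout cells (CDKO) minus the change with 5 µM OHT in wild-type (WT) cells, on the log2 scale. A positive interaction says that the drug moved a gene further up, or less far down, in CDKO than in WT cells. The comparison used 8 of the 10 arrays of the study, in 4 groups of 2: CDKO cells given 5 µM for 4 days, untreated CDKO cells, WT cells given 5 µM for 4 days, and untreated WT cells. The other 2 arrays were CDKO cells at 1 µM, which entered the fit for the estimate of spread and served as a look at a lower dose. The labels give no strain, no Cre driver, no number of independent cell lines and no time for the untreated cells, and the description calls all samples conditional knockouts although the titles name 4 of them WT. Nor do they tell if a group's 2 arrays were independent cultures, so p-values may measure technical spread only. All 4 groups carried high signal for Vim and Col1a1, which are among 12 listed fibroblast markers. The group means of Vim lay between 15.3 and 15.5 and those of Col1a1 between 13.5 and 15.3 (log2). The lowest of the 12 were Lum, at 3.32 to 4.96, Fap, at 4.30 to 7.62, and Pdgfra, at 6.12 to 8.49.

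OHT is a ligand of estrogen receptors that is widely used to switch on Cre recombinase fused to such a receptor, and Cre can then cut a floxed gene out of the genome. Dicer is the enzyme that cuts microRNA precursors into mature microRNAs, which lower the levels of the messenger RNAs they pair with. An interaction can arise in different ways. A gene can respond in CDKO cells alone, respond in WT cells alone, or hold 1 level in 3 groups and another in untreated WT cells, so that the fall or rise in WT cells follows from the untreated culture.

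Of 45037 non-control probe sets, 20582 (45.7%) had a mean of at least 4 in 1 or more of the 4 groups and were kept. All 4 means reached 4 in 17941 of them, and only 1 mean did in 1179. At the edge of that rule, a Thada probe set was kept with means of 4.00 in CDKO cells at 5 µM, 3.96 in untreated CDKO, 3.96 in WT at 5 µM and 3.94 in untreated WT cells, and a Zfp772 probe set was left out with 3.97, 3.89, 3.87 and 4.00 in the same groups, the last just under the limit. Values of about 2 to 4 are close to background on these arrays, so a difference from such a value is not a ratio of transcript amounts. For counts over genes, each of 10594 genes was counted once, by its probe set of highest mean over the arrays.

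The arrays were not of equal quality. The median SD between replicates over detected probe sets was 0.299 in CDKO cells at 5 µM, 0.319 in untreated CDKO, 0.0711 in WT at 5 µM and 0.0989 in untreated WT cells (log2, n = 2 arrays each). The control probe sets for 18S ribosomal RNA read 10.4 to 12.2 in the untreated WT arrays and 9.13 to 10.8 in replicate 2 of CDKO at 1 µM, against 4.35 to 8.94 in the other 7 arrays. The 3′ minus 5′ difference of the Gapdh control, a sign of RNA integrity, stood apart in the same 3 arrays, with 0.89 and 0.67 in untreated WT cells and 1.58 in replicate 2 of CDKO at 1 µM, against -0.31 to 0.069 in the other 7. The spike-in controls were in a lower class in replicate 2 of CDKO at 5 µM and replicate 2 of untreated CDKO, and in a higher class in the other 6 arrays of the comparison. The number of arrays limited the precision.

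More probe sets passed the test with 5 µM OHT in WT than in CDKO cells. The change with the drug passed the test (limma, Benjamini-Hochberg adjusted p under 0.05 over all probe sets tested) for 30 probe sets in CDKO cells (0.146%), of which 24 rose (0.117%) and 6 fell (0.0292%). In WT cells it passed for 1913 (9.29%), of which 728 rose (3.54%) and 1185 fell (5.76%). The median absolute change was 0.26 in CDKO and 0.52 in WT cells, and 1781 probe sets changed by at least 1 in size in CDKO cells, against 5262 in WT cells. Across the 20582 probe sets, which share arrays and are not independent replicates, the changes in the lines, which share no array with each other, correlated at r = 0.515. These counts use 1 spread over all groups. With 1 spread per line, 0 probe sets were called in CDKO cells, and in WT cells 5639 were called higher and 6931 lower. The lines themselves differed in 1367 probe sets untreated (6.64%) and in 372 at 5 µM (1.81%). They also hung on single arrays: in CDKO cells the higher calls were 132 without replicate 2 of CDKO at 5 µM, 92 without replicate 2 of untreated CDKO, 12 without replicate 1 of CDKO at 5 µM, 0 without replicate 1 of untreated CDKO and 2 without any 1 of the 4 WT arrays. In WT cells the higher calls were 17 to 56 and the lower calls 49 to 220 without any 1 WT array, and 2048 and 2464 without either 1 µM array.

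The interaction itself passed the test for 73 probe sets (0.355%), 60 of them higher (0.292%) and 13 lower (0.0632%), while 2587 had an unadjusted p under 0.05. Of these 73 probe sets, 51 held a separate level in untreated WT cells alone, 11 in WT cells at 5 µM alone and 5 in CDKO cells at 5 µM alone. In this sorting a line counted as moved where its means differed by at least 1, and a level as separate where it lay at least 1 from both means of the other line while the line's other mean lay within 1 of both. A further 4 called probe sets moved in WT cells alone without a level that was separate by this rule. Of the rest, 1, of the bladder surface protein gene Upk1b, moved in opposite directions in the lines. The other, of the secreted chaperone gene Clu, moved in the same direction in both. Upk1b and Clu are named after their values were seen. Among all 20582 probe sets, 14571 moved in neither line and 2069 were set by untreated WT cells. Another 1000 moved the same way in both lines. In WT cells alone 1860 moved without a separate level, and in CDKO cells alone 389 did so. A further 301 lay apart in WT cells at 5 µM and 270 in CDKO cells at 5 µM. The count depended on single arrays. Without either of the 1 µM arrays, which leaves the 2 scattered arrays out of the spread, 140 probe sets were higher and 76 lower, of which 136 fell in the class set by untreated WT cells. Without replicate 1 or 2 of WT at 5 µM, 10 and 9 were higher and 1 and 0 lower. Without replicate 1 or 2 of untreated WT cells, 49 and 17 were higher and 4 and 0 lower. Without replicate 1 of CDKO at 5 µM 34 were higher and 8 lower, and without replicate 1 or 2 of untreated CDKO, 42 and 31 were higher and 8 and 9 lower.

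**Figure D1:**
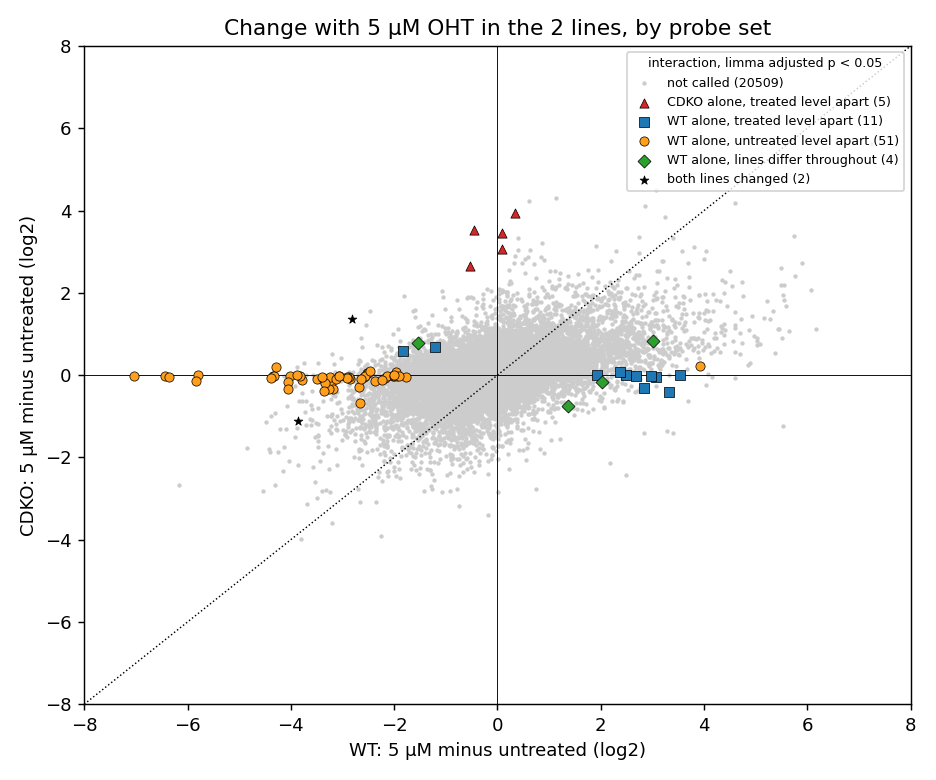
Change with 5 µM OHT in CDKO cells (vertical axis) against that in WT cells (horizontal axis) for the 20582 probe sets tested, both as log2 differences of means of 2 arrays. Coloured marks are the 73 probe sets whose interaction passed the test, by class: 51 lie along the horizontal axis through untreated WT cells, and 5 lie between 2.66 and 3.93 on the vertical axis with WT changes of -0.54 to 0.33.

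Genes that moved with the drug in CDKO cells alone were few, with 5 called probe sets of 4 genes, all higher. In 3 of the 5 only the mean of CDKO at 5 µM reached 4, so that they entered the comparison through that group and had to differ there. Slc7a11, the cystine importer subunit that feeds glutathione synthesis, on chromosome 3, read 2.78 and 2.73 in untreated CDKO cells, 3.18 and 2.62 at 1 µM and 5.78 and 5.87 at 5 µM (log2). In WT cells it read 2.80 and 2.79 at 5 µM and 2.72 and 2.69 untreated. Both CDKO arrays at 5 µM stood above 4, and the other 8 lay within background. Its interaction was 2.98 ± 0.32 (log2, SE; limma adjusted p = 0.0150), and its other probe set gave 3.37 ± 0.30 (adjusted p = 0.00778). Abcc4, an ATP-driven exporter of organic anions and drug conjugates, on chromosome 14, was well detected everywhere. It read 6.77 and 7.47 in untreated CDKO cells, 7.28 and 7.34 at 1 µM and 9.73 and 9.83 at 5 µM. In WT cells it read 6.61 and 6.55 at 5 µM and 7.07 and 7.17 untreated. The CDKO arrays at 5 µM lay more than 2 above all others, and the interaction was 3.19 ± 0.36 (adjusted p = 0.0191).

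Nrcam, a cell adhesion molecule of the immunoglobulin family best known from neurons, on chromosome 12, followed the same pattern. It read 2.95 and 3.79 in untreated CDKO cells, 3.31 and 3.71 at 1 µM and 7.01 and 6.78 at 5 µM, against 3.99 and 3.65 in WT at 5 µM and 4.16 and 4.39 in untreated WT cells. The interaction was 3.98 ± 0.45 (adjusted p = 0.0195), and the only other tested probe set of the gene gave 2.05 without passing. A probe set of Map7d2, a microtubule-associated protein gene named here after its values were seen, was the last of the class, with 6.50 and 6.18 in CDKO at 5 µM, 2.44 and 2.38 in untreated CDKO, 2.42 and 2.996 in WT at 5 µM and 2.36 and 2.39 in untreated WT cells. The other tested probe set of Map7d2, which had the higher mean over the arrays, gave 0.95 without passing. In all 5 called probe sets both 1 µM values lay within 1 of the untreated CDKO mean. Within a spike-in class the CDKO change rests on 1 treated and 1 untreated array. It was 2.998 and 3.15 in the higher and lower class for Slc7a11, 2.96 and 2.35 for Abcc4, and 4.06 and 2.99 for Nrcam. The genes were picked by their interaction over both classes, and the part of the spike-in class was not tested. None of these 3 genes kept its call without each array in turn. All 3 lost it without replicate 1 of CDKO at 5 µM, without either array of WT at 5 µM and without either array of untreated WT cells, with adjusted p up to 0.163, and Slc7a11 also without either untreated CDKO array, while the interactions stayed between 2.84 and 4.40.

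**Figure D2:**
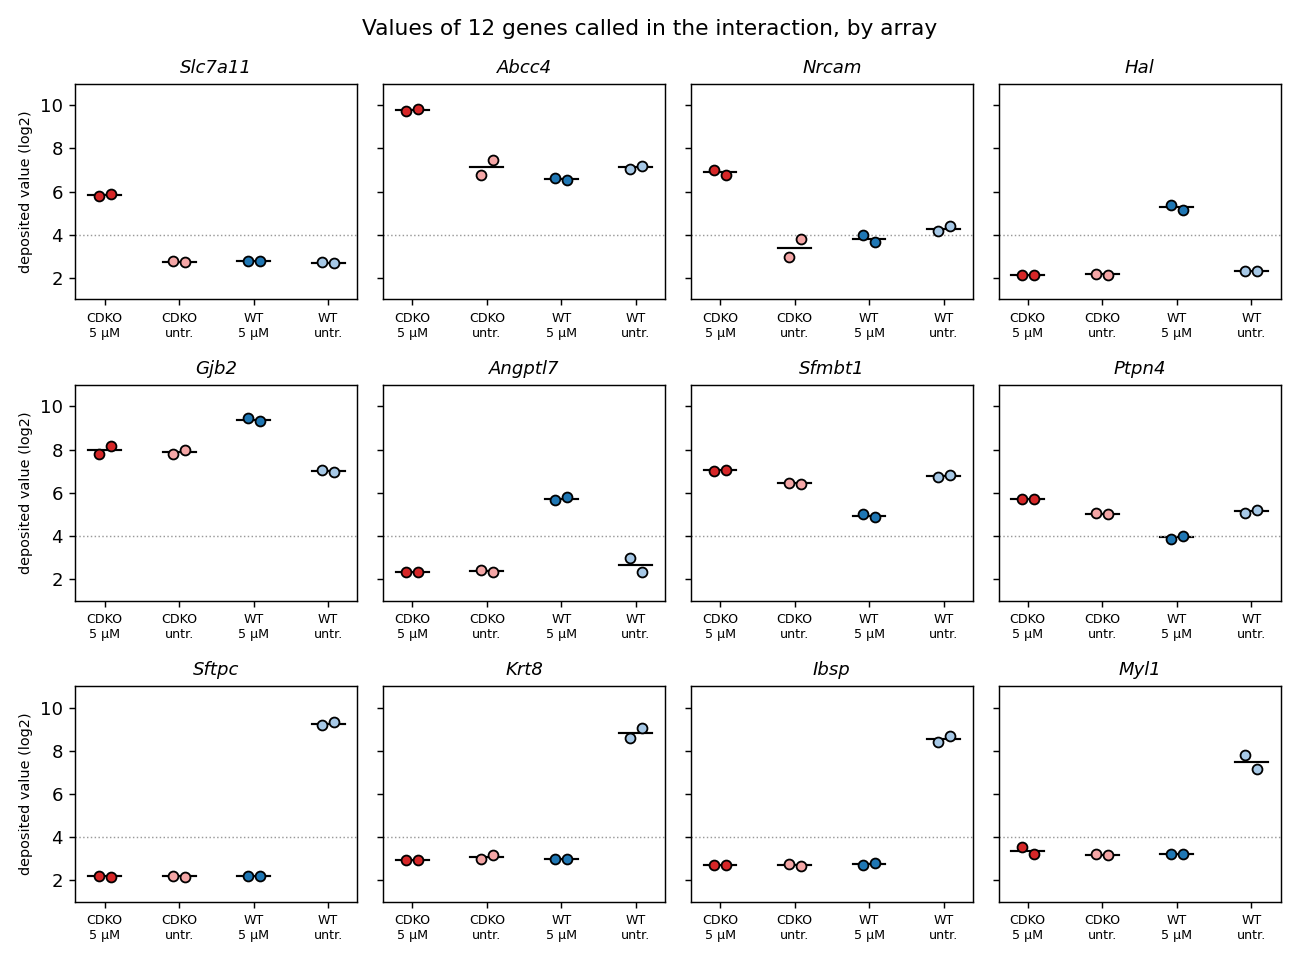
Deposited log2 values of 12 genes whose interaction passed the test, with 1 point per array and a bar at the mean of 2 arrays, for CDKO at 5 µM, CDKO untreated, WT at 5 µM and WT untreated cells. The dotted line marks the limit of 4. Slc7a11, Abcc4 and Nrcam stand apart in CDKO at 5 µM, the next 5 genes in WT at 5 µM, and Sftpc, Krt8, Ibsp and Myl1 in untreated WT cells.

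Slc7a11 and Abcc4 are both known targets of NRF2, a transcription factor that is held down by KEAP1 and released by oxidants and electrophiles. It binds antioxidant response elements and raises genes of glutathione synthesis, quinone reduction and conjugate export. Of 18 listed targets of NRF2 and of the aryl hydrocarbon receptor, a ligand-activated factor for many aromatic compounds, 15 were tested and these 2 passed in the interaction, both upward (all genes 0.255%). Slc7a11 entered through CDKO at 5 µM alone, and of the 14 with all 4 means at 4 or more 1, Abcc4, was called. The CDKO change passed upward for 3 of the 15 (all genes 0.142%) and the WT change for 1 (all genes 3.49%). The median interaction of these 14 was 0.83, against 0.09 over all 10594 genes. The median change of the 15 was 1.62 in CDKO and 0.14 in WT cells, against -0.01 and -0.09 over all genes. Both CDKO arrays at 5 µM lay above both untreated CDKO arrays for 12 of the 15, where 14.5% of all genes did so, and the like held for 9 of the 15 in WT cells, where 36.7% of all genes did so.

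The glutathione synthesis genes had the next largest differences but did not pass. Gclc, the catalytic subunit of the enzyme that makes the first peptide bond of glutathione, read 11.06 and 10.61 in CDKO at 5 µM, 9.49 and 8.54 in untreated CDKO, 9.32 and 9.28 in WT at 5 µM and 9.88 and 10.27 in untreated WT cells. The CDKO change was 1.82 and the WT change -0.78, and the interaction of 2.60 ± 0.52 did not pass (adjusted p = 0.124). Gclm, the modifier subunit, read 10.56 and 11.65 in CDKO at 5 µM, 8.95 and 9.60 in untreated CDKO, 9.58 and 9.38 in WT at 5 µM and 9.45 and 9.67 in untreated WT cells, with an interaction of 1.91 ± 0.60 (adjusted p = 0.277). Nqo1, a quinone reductase, rose in both lines. Its change was 2.55 in CDKO cells, with an adjusted p of 0.0376, and 1.75 in WT cells, with one of 0.0179. The interaction of 0.80 did not pass (adjusted p = 0.479). Hmox1, which opens the heme ring, had changes of 1.72 in CDKO and 2.44 in WT cells, neither past the test. Cyp1a1, the classical aryl hydrocarbon receptor target, had no group mean above 2.07 and was not tested.

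**Figure D3:**
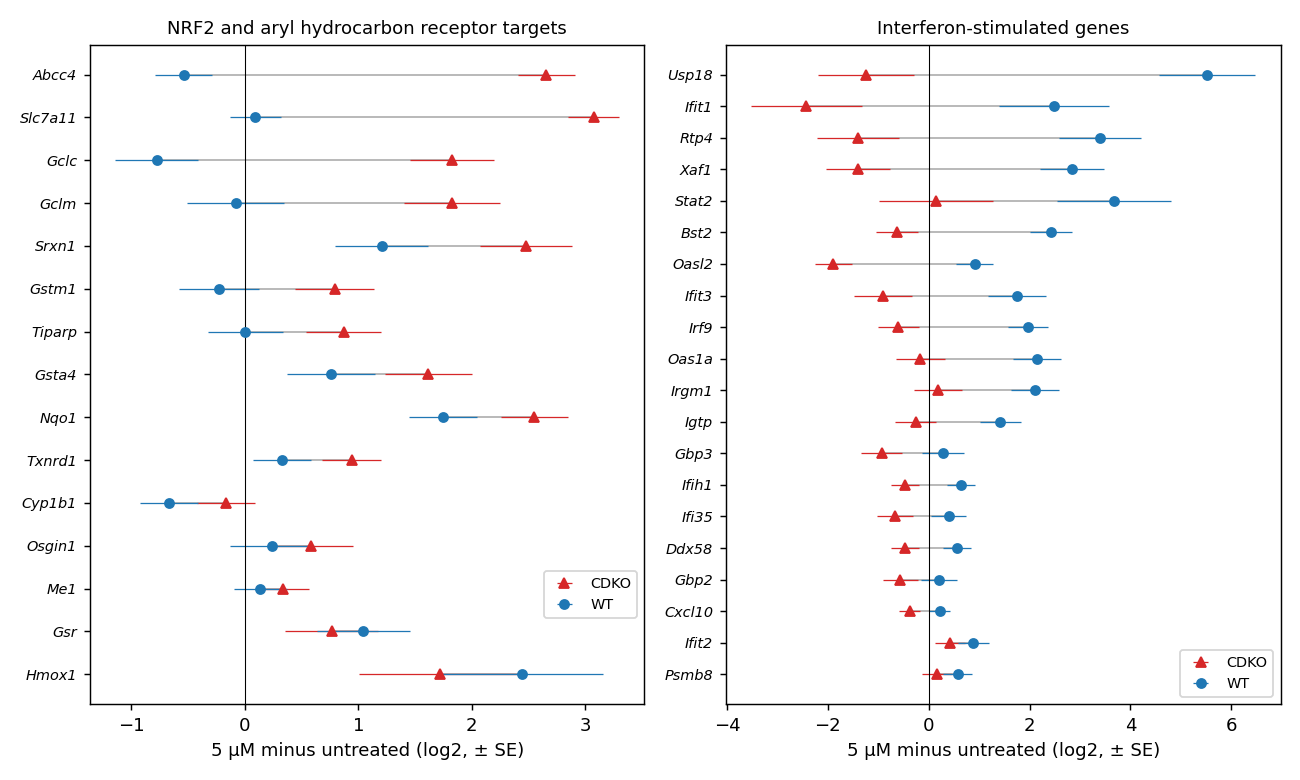
Change with 5 µM OHT in CDKO cells (red triangles) and WT cells (blue circles) for the 15 tested NRF2 and aryl hydrocarbon receptor targets (left) and the 20 tested interferon-stimulated genes (right), as log2 differences with the SE of the limma fit, ordered by interaction. In the left plot Abcc4, Slc7a11, Gclc and Gclm have CDKO changes of 1.82 to 3.07 and WT changes of -0.78 to 0.09. In the right plot every WT change is above the CDKO change.

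Promoter sequence is shown for Abcc4 and Slc7a11, the NRF2 targets whose interaction passed. The table of promoters held 53 of the 76 named genes. Each window holds 300 bases that span the start of the gene, from RefSeq on GRCm38.p6, 5′ to 3′ in the direction of the gene. The Abcc4 window is chr14:118706170-118706469 and the Slc7a11 window is chr3:50443564-50443863, both on the minus strand. Capitals mark matches on either strand to TGACNNNGC, the core of the antioxidant response element.
Abcc4: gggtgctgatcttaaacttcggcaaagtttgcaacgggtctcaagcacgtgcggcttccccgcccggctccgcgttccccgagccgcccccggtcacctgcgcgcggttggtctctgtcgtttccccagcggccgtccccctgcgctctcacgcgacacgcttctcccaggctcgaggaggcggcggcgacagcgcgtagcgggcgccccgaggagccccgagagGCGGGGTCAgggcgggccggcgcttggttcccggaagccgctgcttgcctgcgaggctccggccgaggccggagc
Slc7a11: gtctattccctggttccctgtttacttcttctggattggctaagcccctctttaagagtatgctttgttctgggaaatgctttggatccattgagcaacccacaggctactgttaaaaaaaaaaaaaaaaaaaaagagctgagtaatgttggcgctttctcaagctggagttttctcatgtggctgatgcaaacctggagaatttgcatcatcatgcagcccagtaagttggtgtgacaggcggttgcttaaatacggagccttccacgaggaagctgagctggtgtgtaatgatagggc
The Abcc4 window held 1 match, read on the strand opposite to the gene, and a second annotated start of the gene held 1 as well. The Slc7a11 window and that of Nrcam held 0.  Among 32851 promoter windows of the same length, 12.4% held the core. A match describes letters in this window and was not tested as a binding site.

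Of the 11 called probe sets that lay apart in WT cells at 5 µM, 9 had a negative interaction, being higher there, and 2 a positive one. Of all 301 tested probe sets of that class, 118 were negative and 183 positive. In 7 of the 11, Hal and Angptl7 among them, only the mean of WT at 5 µM reached 4, so that they had to differ there. The largest in size belonged to a probe set without a single gene symbol, at -3.73, and to the clone-named 1700001O22Rik at -3.54 (adjusted p = 0.0158), both given here after their values were seen. Hal, which turns histidine into urocanate, read 2.15 and 2.14 in CDKO at 5 µM and 2.18 and 2.14 in untreated CDKO, against 5.39 and 5.15 in WT at 5 µM and 2.31 and 2.30 in untreated WT cells. It left background only in treated WT cells, and its interaction was -2.98 ± 0.26 (adjusted p = 0.00716). Angptl7, a secreted angiopoietin-like protein, showed the same shape with 2.34 and 2.32 in CDKO at 5 µM, 2.40 and 2.33 in untreated CDKO, 5.65 and 5.78 in WT at 5 µM and 2.96 and 2.34 in untreated WT cells (interaction -3.10 ± 0.33, adjusted p = 0.0155). Gjb2, the gap junction protein connexin 26, was expressed in all groups. It read 7.79 and 8.15 in CDKO at 5 µM and 7.81 and 7.99 in untreated CDKO, against 9.45 and 9.31 in WT at 5 µM and 7.05 and 6.96 in untreated WT cells (interaction -2.31 ± 0.30, adjusted p = 0.0296). The untreated lines differed too, by 0.90 (adjusted p = 0.0492), just under the class limit.

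The 2 genes of this class that fell in WT cells alone code for a chromatin protein and a phosphatase. Sfmbt1, a Polycomb-associated protein with malignant brain tumour repeats, read 7.02 and 7.06 in CDKO at 5 µM, 6.47 and 6.42 in untreated CDKO, 5.01 and 4.85 in WT at 5 µM and 6.71 and 6.83 in untreated WT cells. Its interaction was 2.43 ± 0.28 (adjusted p = 0.0195), and its other 2 tested probe sets were positive too, the lowest at 0.32. Ptpn4, a tyrosine phosphatase, read 5.71 and 5.72 in CDKO at 5 µM, 5.05 and 5.01 in untreated CDKO, 3.88 and 4.02 in WT at 5 µM and 5.08 and 5.21 in untreated WT cells (interaction 1.89 ± 0.27, adjusted p = 0.0459). The arrays of each group stood close together in both genes. The 5 calls of Hal, Angptl7, Gjb2, Sfmbt1 and Ptpn4 were all lost without either array of WT at 5 µM, and that of Ptpn4 without any 1 of the 8 arrays. That of Hal was also lost with values under 4 set to 4, and that of Ptpn4 under a spike-in block. Ptpn4 passed in 7 of 14 alternatives other than leaving out a single array. In 4 called probe sets WT cells alone moved, without a level that was separate by the class rule. C1ql3, a secreted complement-like protein, was at -2.18 ± 0.31 (adjusted p = 0.0443), with 8.72 and 8.61 in CDKO at 5 µM, 7.69 and 7.99 in untreated CDKO, 9.61 and 9.60 in WT at 5 µM and 6.42 and 6.77 in untreated WT cells. Hoatz, a gene of motile cilia, was at -2.17 ± 0.31 (adjusted p = 0.0465). The other 2, named after their values were seen, were Nlk, a kinase, at 2.32 and Pdlim2, a cytoskeletal adaptor, at -2.13. C1ql3 and Hoatz lost their calls under a spike-in block. Among 15 alternatives other than leaving out a single array, C1ql3 passed in 7 and Hoatz in 6. The limma adjusted p there reached 0.690 for C1ql3 and 0.733 for Hoatz.

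The largest called interactions belonged to genes that differed only through untreated WT cells. In 50 of the 51 called probe sets of that class untreated WT cells were high, with means of 4.01 to 9.25 and a median of 6.02, and in 47 of the 50 the other 3 group means were under 4. Such probe sets entered the comparison through that group alone, so that they had to differ there. The largest CDKO change among the 50 was 0.68 in size. Sftpc, surfactant protein C of lung epithelium, read 2.18 and 2.17 in CDKO at 5 µM, 2.20 and 2.17 in untreated CDKO and 2.20 and 2.20 in WT at 5 µM, against 9.17 and 9.32 in untreated WT cells. Krt8, a keratin of simple epithelia, read 2.93 and 2.92 in CDKO at 5 µM, 2.97 and 3.15 in untreated CDKO and 2.97 and 2.98 in WT at 5 µM, against 8.59 and 9.04 in untreated WT cells, and all 3 of its probe sets were called. Ibsp, the bone matrix sialoprotein, read 8.40 and 8.68 in untreated WT cells and 2.66 to 2.78 in the other 6 arrays. The interactions were 7.03 ± 0.33 for Sftpc, 5.79 ± 0.26 for Ibsp and 5.71 ± 0.30 for Krt8 (adjusted p = 0.000309, 0.000309 and 0.000601). Sftpc, Ibsp and Krt8 passed without each array in turn and under the other alternatives run.

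The class held markers of several tissues. Of 10 epithelial markers 7 were tested, of which 4 (Sftpc, Krt8, Cdh1 and Epcam) entered through untreated WT cells alone and had to differ there. The called ones were Sftpc, Krt8 and the adhesion gene Cdh1, at 3.31 ± 0.29, and none of the 3 with all 4 means at 4 or more (median 0.15) was called, where 0.321% of all genes passed in either direction. Of 14 skeletal muscle markers 9 were tested, of which 5 entered through untreated WT cells alone. Of these 5, 4 were called: Myl1 at 4.48 ± 0.39, Myh3 at 3.16 ± 0.30 and Tnni1 at 3.04 ± 0.26, which code for sarcomere proteins, and Actc1, cardiac actin, at 2.92 ± 0.29. The other 4 muscle markers, with all 4 means at 4 or more, had a median of 1.13 and no call. Among them the troponin gene Tnnc1 was at 2.98 ± 0.53 (adjusted p = 0.0988), while Acta1, skeletal actin, went the other way at -1.39 ± 0.65 (adjusted p = 0.432), with a WT change of 1.93 that passed. The muscle regulators Myod1 and Myog had no mean above 2.53 and were not tested. Adipoq, an adipocyte hormone, passed at 1.91 ± 0.24 as the only one of 6 tested adipocyte markers, and Ibsp as the only one of 3 tested cartilage and bone markers. Both entered through untreated WT cells alone, and the Adipoq call was lost without any 1 of the 8 arrays. The members of these lists with all 4 means at 4 or more had medians of 0.90 and 0.52. Of 10 endothelial markers 8 had no mean of 4, among them Pecam1 and Cdh5. The median interaction was 0.08, with a range of -0.57 to 0.81 without each array in turn, over 18 markers of macrophages and leukocytes, with none called, and their levels differed between arrays of CDKO cells (0.72 and -1.09 at 5 µM, 0.02 and -0.97 untreated) but not of WT cells (1.17 and 1.17 at 5 µM, 1.03 and 1.21 untreated). In bulk RNA, more cells of a type and more RNA per cell cannot be told apart.

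The raised 18S control and the Gapdh difference moved with untreated WT cells and with 1 further array, and their part in the class set by untreated WT cells was not tested. In that array, replicate 2 of CDKO at 1 µM, 3 of the 50 probe sets reached 4, against 2 in replicate 1, and the replicates differed by -0.61 to 0.64 with a median of -0.01. Both 1 µM arrays entered the spread of the fit, so a probe set whose 1 µM replicates lay far apart was less likely to be called. The small differences follow in part from that selection and cannot show what part these signs had. The single called probe set that was low in untreated WT cells belonged to Pdgfd, a growth factor of the PDGF family, with 7.26 and 7.70 in CDKO at 5 µM, 7.28 and 7.25 in untreated CDKO, 7.11 and 7.58 in WT at 5 µM and 3.43 and 3.44 in untreated WT cells. It is named here after its values were seen. Since both untreated WT arrays carried both signs, the untreated state and those signs cannot be told apart within WT cells.

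Probe sets of the same gene did not always move together. Of 51 genes with a called probe set, 23 had more than 1 tested, of which 11 had all of them on the same side at a size of at least 1 and 5 had a probe set of the other sign.

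The 20 tested interferon-stimulated genes all had a negative interaction, where 4659 of all 10594 genes did. None was called by limma (all genes 0.0661% downward), while 13 had an unadjusted p under 0.05, where 2587 of all 20582 probe sets did. These genes are raised by type I interferon, and many code for antiviral proteins. Of 32 listed genes 29 were analysed here, and the 9 of these that were not tested had no group mean above 3.74. Of the 20 interactions 16 were at -1 or below, where 474 of all 10594 genes were. The median was -2.11 (all genes 0.09), and -1.92 over the 15 with all 4 means at 4 or more. The smallest adjusted p was 0.108. The median change was -0.58 in CDKO and 1.59 in WT cells. Both WT arrays at 5 µM lay above both untreated WT arrays in all 20 (36.7% of all genes), and both CDKO arrays at 5 µM lay below both untreated CDKO arrays in 13 of 20 (13.2% of all genes). The WT change passed for 7 of the 20, all upward, where 3.49% of all genes passed upward.

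Usp18, which removes ISG15 from proteins and dampens the interferon receptor, had the largest difference. It read 5.87 and 6.14 in CDKO at 5 µM, 7.42 and 7.07 in untreated CDKO, 8.43 and 8.48 in WT at 5 µM and 2.76 and 3.10 in untreated WT cells, so each pair was apart from the others. In CDKO at 1 µM it read 6.23 and 2.65. Its interaction of -6.76 ± 1.35 did not pass (adjusted p = 0.124). Without either 1 µM array the adjusted p was 0.00140 and with array weights 0.0417, in a range of 0.00140 to 0.575 over the alternatives run. Ifit1, a sensor of foreign RNA caps, read 4.10 and 5.80 in CDKO at 5 µM, 8.37 and 6.39 in untreated CDKO, 5.77 and 5.94 in WT at 5 µM and 3.53 and 3.21 in untreated WT cells (interaction -4.91 ± 1.55, adjusted p = 0.279). Rtp4 and Xaf1 had interactions of -4.79 ± 1.15 and -4.24 ± 0.89 (adjusted p = 0.183 and 0.137). The lines began apart, since untreated CDKO cells stood above untreated WT cells with a median of 1.00 over the 20 genes, and 5 of them passed that test upward (all genes 1.94%). In this list too the untreated WT arrays were the low end, at -0.57 and -0.69 in the centred median, against 0.60 and 0.75 in WT at 5 µM, and -0.72 in the 1 µM array with the raised 18S control against 0.34 in the other. The part of the 18S and Gapdh signs in the result was not tested.

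**Figure D4:**
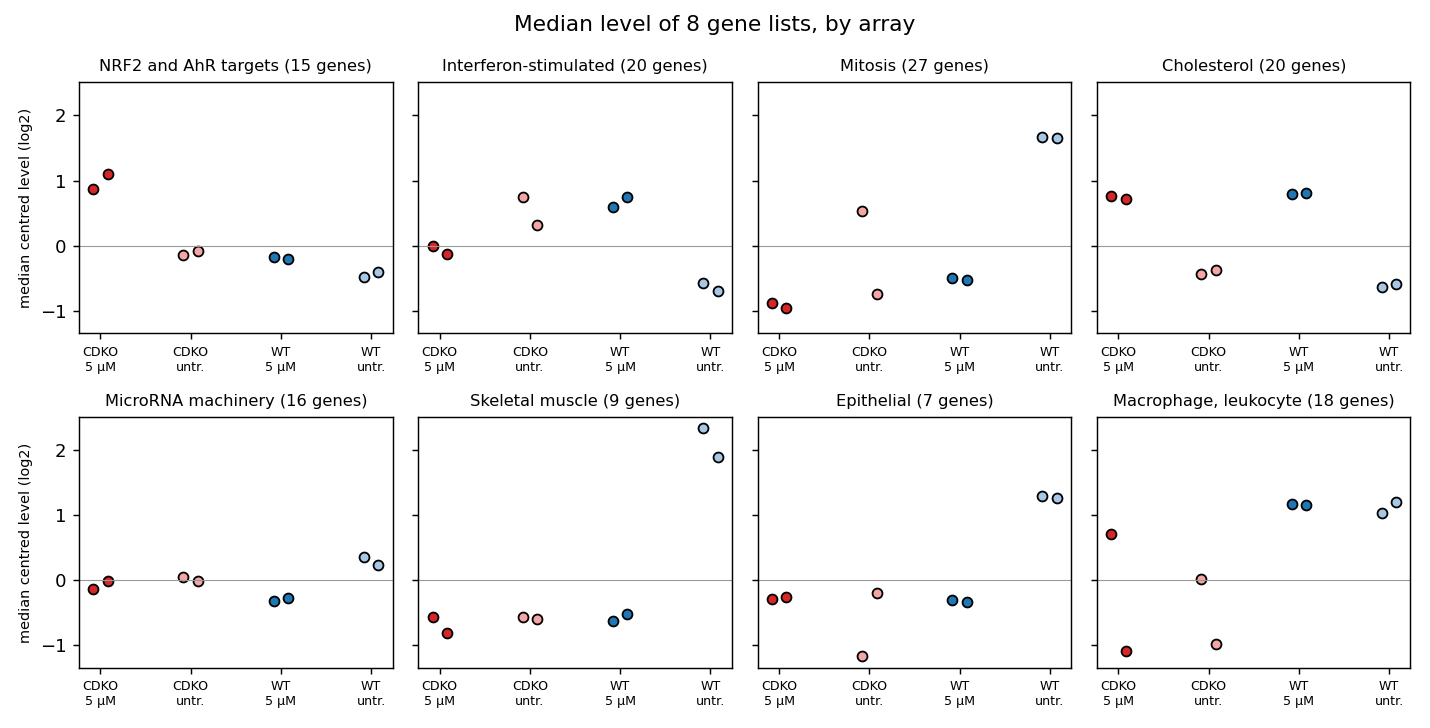
Median level of 8 gene lists in each of the 8 arrays, as log2 values centred on each gene's mean, for CDKO at 5 µM, CDKO untreated, WT at 5 µM and WT untreated cells. The NRF2 list is high in CDKO at 5 µM, the interferon list low in untreated WT, the mitosis, muscle and epithelial lists high in untreated WT, and the cholesterol list high at 5 µM in both lines. The muscle and epithelial lists hold members that were tested through untreated WT cells alone.

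Of 27 tested mitosis genes, 13 fell with the drug in WT cells (all genes 4.8%). In CDKO cells 26 of the 27 changes were negative without passing the test, where 5405 of all 10594 genes were negative. All 27 had a positive interaction (median 1.35), where 5935 of all 10594 genes did. None of the 27 was called by limma, and 2 had an unadjusted p under 0.05, where 2587 of all 20582 probe sets did. The median change was -0.89 in CDKO and -2.22 in WT cells. The kinases Aurka and Aurkb fell by 1.55 and 1.88 in WT cells (adjusted p = 0.0269 and 0.0267) with changes of -0.24 and -0.84 in CDKO cells that did not pass. The 28 DNA replication genes had a median interaction of 1.07. Of these 28, 7 fell in WT cells, and 21 had negative CDKO changes that did not pass. The centred median of the mitosis genes was -0.88 and -0.96 in CDKO at 5 µM, 0.54 and -0.74 in untreated CDKO, -0.49 and -0.53 in WT at 5 µM and 1.66 and 1.66 in untreated WT cells. Replicate 2 of untreated CDKO cells thus lay near the treated CDKO pair and replicate 1 above it. In CDKO at 1 µM, replicate 2, with the raised 18S control, stood at 0.83 against -0.87 in replicate 1. The part of that control was not tested here either.

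Cholesterol synthesis and uptake genes had positive changes in both lines. All 20 tested genes shared this sign, which 5189 of all 10594 genes had in CDKO and 4717 in WT cells. The medians were 1.15 in CDKO and 1.33 in WT cells. Of the 20, 1 passed in CDKO (all genes 0.142%) and 14 in WT cells (all genes 3.49%). None was called in the interaction by limma, 1 having an unadjusted p under 0.05, where 2587 of all 20582 probe sets did. The interaction was negative for 16 of the 20, where 4659 of all 10594 genes were negative, with a median of -0.34. The largest in size was that of Fdps, farnesyl diphosphate synthase, at -1.31 ± 0.68 (adjusted p = 0.479). Idi1, the isomerase of the isoprenoid unit, rose by 1.71 in CDKO cells, with an adjusted p of 0.0430, and by 1.77 in WT cells, with one of 0.00611. Its interaction was -0.056 ± 0.30.

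No gene of the microRNA machinery passed in the interaction, Dicer1 included. The Dicer1 probe set with the higher mean read 5.83 and 5.78 in CDKO at 5 µM, 7.09 and 5.99 in untreated CDKO, 7.64 and 7.19 in WT at 5 µM and 8.97 and 9.10 in untreated WT cells, with an interaction of 0.89 ± 1.18 (adjusted p = 0.785). The other Dicer1 probe set gave 0.88 ± 0.36 (adjusted p = 0.388). Where these probe sets lie relative to the floxed part of the gene was not analysed here, so they do not check the deletion. The 16 tested microRNA machinery genes had a median interaction of 0.60, and the members with the largest were the silencing scaffolds of the TNRC6 family and Ago3. Tnrc6a read 11.28 and 11.31 in CDKO at 5 µM, 11.09 and 11.48 in untreated CDKO, 9.71 and 9.83 in WT at 5 µM and 11.44 and 11.34 in untreated WT cells. It was lower in WT at 5 µM than in all other arrays, and its interaction of 1.62 ± 0.29 did not pass (adjusted p = 0.0996), while its WT change of -1.62 passed (adjusted p = 0.00804). Of 12 tested let-7 targets, messenger RNAs held down by an abundant fibroblast microRNA, none was called, and the median was 0.37.

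The remaining lists held no called gene. Their median interactions were -0.43 for 21 senescence and secretory genes, -0.29 for 24 p53 targets, 0.23 for 24 genes of the unfolded protein and integrated stress response, -0.32 for 22 hypoxia and glycolysis genes, -0.19 for 23 lysosome and autophagy genes, 0.04 for 31 extracellular matrix genes, -0.20 for 17 actin and myofibroblast genes, 0.14 for 8 cholesterol efflux genes, -0.06 for 12 fibroblast markers, 0.22 for 8 neural and glial markers and -1.02 for 2 endothelial markers. Single arrays moved several of them by over 1.5 times: without each array in turn, the median ran from -0.85 to -0.10 for senescence and secretory genes, from -0.69 to -0.042 for p53 targets, from -0.62 to -0.022 for hypoxia and glycolysis genes, from -0.29 to -0.025 for lysosome and autophagy genes and from 0.063 to 0.39 for stress response genes. Among them Pfkfb3, a driver of glycolysis, had an interaction of -1.71 ± 0.35 (adjusted p = 0.132) and Abca1, the cholesterol exporter, one of 3.48 ± 1.16 (adjusted p = 0.298), with WT changes of 2.19 and -6.16 that passed and CDKO changes of 0.48 and -2.68 that did not.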

How the data were processed

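RNA taken with Trizol had been hybridised to 10 Affymetrix arrays. The authors deposited a log2 value for each probe set on each array. The submitters' processing notes name GCRMA without a version. The log2 scale was read from the values, and the chip definition used is unstated in the labels. Of 45101 probe sets, 34958 had 1 gene symbol, 932 several and 9211 none in the platform annotation, which can be old.

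Arrays were grouped by title into 5 groups of 2. Non-control probe sets with a mean of at least 4 in any of the 4 groups compared were fitted with limma 3.58.1 under R 4.3.3, as 5 group means with 5 residual degrees of freedom and moderated variances (eBayes), with Benjamini-Hochberg adjustment over all probe sets and a threshold of 0.05. Errors are SE of the fit. Classes were set with a limit of 1 on the log2 scale. The genes named are those with the largest interaction past the threshold in each class and direction (1 probe set per gene, clone and model names passed over), the 3 with the largest in each of 23 lists, and Dicer1, with exceptions stated. The members, classes and lists were chosen with earlier results of these data known.

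On simulated data with interactions of 1, 2, 3 and 4 set in 50 probe sets each, the fit called 0%, 24%, 66% and 70% of each size. Of its 86 calls, 6 were probe sets with no interaction set. The simulation gave all arrays of a probe set the same SD. In the data, replicates lay further apart in CDKO than in WT cells, with median SDs of 0.299 and 0.0711 at 5 µM over detected probe sets. The simulated shares may therefore not hold for the data. The alternatives were quantile normalization, centring, other filters, array weights, a trended robust prior, 1 probe set per gene, 1 spread per line, a replicate block, a spike-in class block, the 8 arrays alone, a minimum interaction of 1, values under 4 set to 4, other class limits and each array left out. The 8 arrays with a replicate block, the classes of the 8-array fit, the classes with all 4 means at 4 list medians in the higher spike-in class and list medians over members with all 4 means at 4 were chosen after seeing the data.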

Additional observations from a re-analysis of the deposited data

Results flagged for a closer look

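Each of the following results is a difference between the lines in the same contrast that passed the limma test of that difference (adjusted p under 0.05), with the values on the log2 scale. The interaction was higher in CDKO than in WT cells for 60 probe sets and lower for 13. In CDKO cells at 5 µM alone it was 3.98 for Nrcam, 3.19 for Abcc4 and 2.98 for Slc7a11. In the class apart in WT cells at 5 µM it was 2.43 for Sfmbt1, 1.89 for Ptpn4, -3.10 for Angptl7, -2.98 for Hal and -2.31 for Gjb2, whose untreated levels also differed between the lines by 0.90. Through untreated WT cells alone it was 7.03 for Sftpc, 5.79 for Ibsp, 5.71 for Krt8, 4.48 for Myl1, 3.31 for Cdh1, 3.16 for Myh3, 3.04 for Tnni1 and 1.91 for Adipoq. In the class that moved in WT cells alone without a separate level it was -2.18 for C1ql3 and -2.17 for Hoatz. Groups of 2 arrays are too small for a test of single arrays that stand apart.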

How the results depend on the processing

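The probe sets called in the interaction numbered 60 higher and 13 lower. They were 139 and 55 with no filter, 29 and 3 with a highest mean of 6, 29 higher with 1 probe set per gene, 28 and 5 with 1 spread per line, 140 and 76 with the 8 arrays alone, 40 lower with the 8 arrays and a replicate block, and 18 and 2 with a minimum interaction of 1. With values under 4 set to 4 there were 61 and 14, of which 35 and 8 were shared with the reported calls. Without each array in turn they ranged from 9 to 140 higher and from 0 to 76 lower.

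The reported fit did not treat same-numbered replicates as pairs, and the sample titles do not tell whether they were. Differences between replicates correlated at 0.431 between CDKO at 5 µM and untreated CDKO. For WT at 5 µM and untreated WT cells the correlation was -0.02. In CDKO at 5 µM and in untreated CDKO, replicate 1 was in the higher and replicate 2 in the lower spike-in class. With the replicate number as a block the interaction gave 31 higher and 7 lower calls, the CDKO change 3 and 0, and the WT change 424 and 775.

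The CDKO change gave 24 higher and 6 lower calls. These were 14 lower with no filter, 0 lower with 1 probe set per gene, 2 and 0 with array weights, 0 and 0 with 1 spread per line, 10 lower with a spike-in class block, 0 and 0 with the 8 arrays and a replicate block, and 2 and 0 with a minimum change of 1. They ranged from 0 to 132 higher and from 0 to 73 lower without each array. The WT change gave 728 higher and 1185 lower calls. These were 407 and 580 with 1 probe set per gene, 5585 and 6869 with array weights, 5639 and 6931 with 1 spread per line, 1225 and 1842 with a spike-in class block, 2048 and 2464 with the 8 arrays alone, 1922 and 2333 with the 8 arrays and a replicate block, and 21 and 63 with a minimum change of 1. They ranged from 17 to 2048 higher and from 49 to 2464 lower without each array. Untreated CDKO against WT cells gave 478 higher and 889 lower calls. These were 515 lower with a highest mean of 6, 179 and 259 with 1 probe set per gene, 835 higher with array weights, 845 and 1367 with a spike-in class block, 1563 and 1655 with the 8 arrays, 1433 and 1513 with the 8 arrays and a replicate block, 27 and 90 with a minimum of 1, and 63 to 1563 and 196 to 1655 without each array. CDKO against WT cells at 5 µM gave 195 higher and 177 lower calls. These were 97 and 66 with 1 probe set per gene, 98 and 100 with a replicate block, 469 and 484 with a spike-in class block, 339 higher with the 8 arrays, 13 and 18 with a minimum of 1, and 13 to 339 and 16 to 256 without each array.

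Among the called probe sets, 5 lay apart in CDKO cells at 5 µM, with 3 at a class limit of 0.5, 1 with all 4 means at 4, and 0 to 37 without each array. A total of 11 lay apart in WT cells at 5 µM, with 7 at a limit of 0.5, 3 with all 4 means at 4, 21 with the 8 arrays, and 0 to 21 without each array. The 51 set by untreated WT cells were 2 with all 4 means at 4, 136 with the 8 arrays, and 8 to 136 without each array. The 4 that moved in WT cells alone without a separate level were 35 with the 8 arrays. The opposite class, with 1, had 6 at a limit of 0.5, 0 at 1.5, 0 with means under 4 set to 4, 9 with the 8 arrays, 0 with all 4 means at 4, and 0 to 9 without each array. The class that moved the same way, with 1, had 3 at 0.5, 0 at 1.5, 2 with the 8 arrays, and 0 to 2 without each array. Classes with 0 calls gained some. CDKO alone without a separate level had 1 at 0.5 and 4 with the 8 arrays. CDKO alone set by the untreated level had 2 with the 8 arrays. Probe sets moved in neither line had 2 at 1.5, 9 with means under 4 set to 4 and 1 with the 8 arrays.

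Of 18 named genes called, 3 (Sftpc, Ibsp and Krt8) passed under all alternatives run, and 0 changed sign. The replicate block ended the calls of Sfmbt1, Ptpn4, Gjb2, Adipoq, C1ql3 and Hoatz. Of 58 named genes not called, 2 (Usp18 and Tnrc6a) passed under some alternative. Of 391 list medians over the alternatives, 315 moved by less than 1 SD. A further 66 moved by more with the same sign, and 10 moved by more with a change of sign. In all, 17 had the other sign than reported. The replicate block, the spike-in class block and the fits without a 1 µM array leave each gene's interaction unchanged. Medians under those settings could not move and count among the 315, which therefore overstates how stable the medians were. In the arrays of the higher spike-in class alone the median was -0.10 for cholesterol efflux genes and -0.60 for extracellular matrix genes. Without each array in turn, medians ranged from -0.27 to 0.085 for actin and myofibroblast genes, from -0.095 to 2.34 for cartilage and bone markers, from -0.083 to 0.47 for cholesterol efflux genes, from -0.66 to 0.67 for extracellular matrix genes, from -0.62 to 0.58 for fibroblast markers, from -0.029 to 0.91 for let-7 targets, from -0.078 to 0.70 for neural and glial markers, from -0.57 to 0.81 for macrophage and leukocyte markers and from 0.078 to 1.15 for adipocyte markers. The cause was not tested.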
